A study of Rattus norvegicus with 9 samples.

Results

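Transcripts of growth hormone and prolactin receptor signalling were followed in pancreatic islets through 8 genes: the receptors Ghr and Prlr, the kinase Jak2, the transcription factors Stat5a and Stat5b, and the feedback inhibitors Cish, Socs2 and Socs3. The genes were listed by name and role, and all 8 of them were found among the 14217 genes measured on the arrays. Each gene was represented by the probe set chosen by its mean log2 value over all arrays, the brightest one, and its other probe sets are given beside it, which makes 12 probe sets in all. The list itself was drawn up with the cafeteria minus chow difference of Ghr already known, so Ghr was in effect selected on that contrast, and its difference is a description that supports nothing. The islets came from Wistar rats, 4 samples from lean animals on standard chow and 5 from animals made obese on a high-caloric cafeteria diet, an energy-dense choice of palatable foods, for 30 days. The labels name no genetic change or drug for either group, and age and sex of the animals are not stated there. Islets were freed by collagenase and their RNA was hybridised to Affymetrix rat arrays, 1 array a sample. Whether a sample pooled the islets of several rats is not stated, so the p-values reflect only how far these 9 samples scatter, which may be partly technical.

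Growth hormone and prolactin bind related receptors of the type I cytokine family that have no kinase of their own. JAK2 bound to the receptor phosphorylates it and the STAT5 proteins, which enter the nucleus and switch on genes through the palindromic element TTCNNNGAA. Among the genes switched on are those for CIS and the SOCS proteins, which bind the receptor or JAK2 and end the signal, so their transcripts are often read as a sign of recent signalling. In islets the prolactin receptor is best known for the growth of beta cells in pregnancy, and growth hormone also acts on beta cells.

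The upstream sequences of 3 members are shown because they differ in how many STAT5-type elements they carry. They are the 250 bases before the annotated start of the gene in RefSeq (build GRCr8), 5′ to 3′ on the strand of the gene, and capitals mark every match to TTCNNNGAA. The motif reads alike on both strands, and none of the matches overlap. The Cish sequence lies at chr8:116850719-116850968 on the plus strand, the Prlr sequence, before the downstream of its 2 listed starts, at chr2:60909409-60909658 on the plus strand, and the Socs3 sequence at chr10:103694769-103695018 on the minus strand.
Cish: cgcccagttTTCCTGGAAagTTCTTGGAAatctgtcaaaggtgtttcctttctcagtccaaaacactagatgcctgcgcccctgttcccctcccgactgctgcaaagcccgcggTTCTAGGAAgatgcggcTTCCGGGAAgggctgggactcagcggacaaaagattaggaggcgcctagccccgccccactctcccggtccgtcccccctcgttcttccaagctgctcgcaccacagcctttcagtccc
Prlr: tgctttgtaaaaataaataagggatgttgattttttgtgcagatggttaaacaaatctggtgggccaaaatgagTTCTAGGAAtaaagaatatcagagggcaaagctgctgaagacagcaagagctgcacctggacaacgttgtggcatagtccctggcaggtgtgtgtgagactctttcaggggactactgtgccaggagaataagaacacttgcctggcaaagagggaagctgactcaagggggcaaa
Socs3: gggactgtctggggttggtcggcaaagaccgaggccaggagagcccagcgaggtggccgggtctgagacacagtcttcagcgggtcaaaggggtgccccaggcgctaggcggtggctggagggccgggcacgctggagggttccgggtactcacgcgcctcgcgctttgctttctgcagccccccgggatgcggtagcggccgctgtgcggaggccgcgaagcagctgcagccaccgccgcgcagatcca
Cish held 4 matches, TTCCTGGAA, TTCTTGGAA, TTCTAGGAA and TTCCGGGAA, which begin 241, 230, 136 and 119 bases before the start and stand as a distal and a proximal pair. Prlr held 1, TTCTAGGAA, 176 bases before that start. No match lay in these windows of Socs3, Ghr, Jak2, Stat5a, Stat5b or the upstream start of Prlr, which says nothing of elements elsewhere. Promoters were matched for 7 of the 8 genes, all but Socs2. Of 33469 promoter windows of this length in the table, 7.67% held at least 1 match, 0.418% at least 2, and 2 windows (0.00598%) held 4 or more.

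The deposited values are log2 expression values that the submitters' processing notes link to RMA, a method that equalises the distributions of the arrays. The column medians lay between 5.28 and 5.32, and no 2 arrays were identical. Genes of islet endocrine cells had a mean level of 12.56 to 12.67 log2 in chow and 12.39 to 12.67 in cafeteria samples over the 10 of 12 listed markers measured, and none of the 10 lay below the median of all probe sets. Markers of immune cells were lower under the cafeteria diet in 12 of 12 genes (median -0.637), with 7 of the 12 dim. Their mean level was 5.44 to 6.81 in chow and 5.26 to 5.46 in cafeteria samples, highest in chow replicate 3. Immediate early genes, which respond within minutes to handling, were lower in 15 of 15 (7.50 to 9.11 against 7.25 to 8.29, highest in chow replicate 1). Acinar markers were higher in 12 of 13 (5.84 to 6.59 against 5.60 to 7.16), with 4 of the 13 dim. Their lowest level of all arrays was in cafeteria replicate 5. The 3-prime minus 5-prime difference of the actin and Gapdh control probe sets, which grows as RNA is degraded or copied incompletely, was 1.42 to 1.80 log2 in chow and 1.21 to 1.74 in cafeteria samples. The part of these features in the diet differences below was not tested, except for the 3-prime minus 5-prime difference, with which values are also given.

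Across the whole table no probe set passed the test between the diets. limma called 0 of 31042 probe sets at a Benjamini-Hochberg adjusted p of 0.05 (0.0%) and 1789 at an unadjusted p under 0.05 (5.76%). Of the 8 members 0 were called, and 1, Ghr, had an unadjusted p under 0.05, where 6.7% of all genes did. The cafeteria mean was higher in 2 members, both receptors, and lower in the other 6, with a median difference of -0.12 log2. Among the lower ones, Stat5b, Cish and Socs3 changed sign when certain single samples were left out, so their direction is not settled. Over all genes 50.8% were higher, with a median of 0.00251. The groups did not overlap in 1 member, Ghr, against 2.17% of all genes (1.33% with every cafeteria array above and 0.837% with every one below the chow arrays). Ghr had been picked for this contrast, so its place in these counts is no result.

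**Figure D1:**
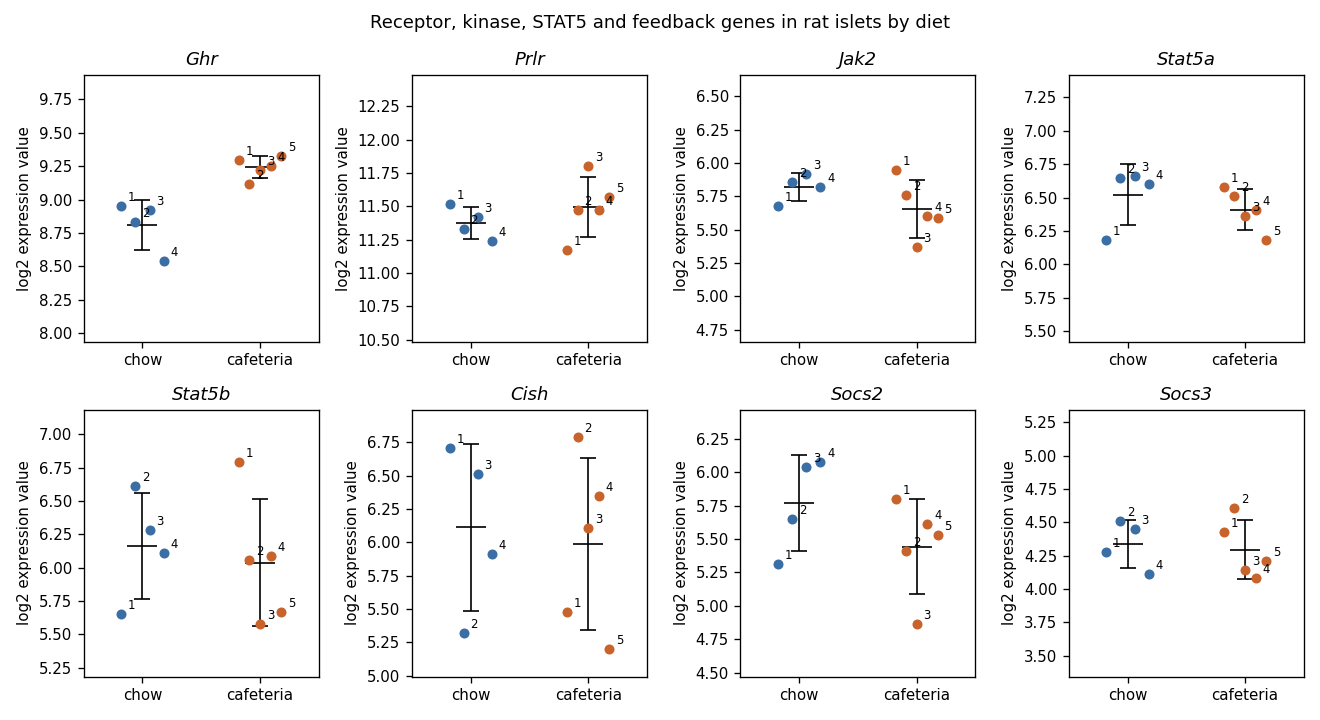
Log2 expression value of the representing probe set of each of the 8 genes in 4 chow (blue) and 5 cafeteria (orange) samples; numbers are replicates, horizontal marks the mean and bars 1 SD, and every panel spans 2 log2 units. The Ghr groups are apart (chow up to 8.95, cafeteria from 9.12), whereas the other 7 genes overlap, and Cish covers 5.20 to 6.79.

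The growth hormone receptor gene Ghr was higher in the cafeteria samples by its brighter probe set. The 4 chow samples had 8.95, 8.83, 8.92 and 8.54, and the 5 cafeteria samples had 9.30, 9.12, 9.22, 9.25 and 9.33 log2. Every cafeteria value lay above every chow value, and the gap between the nearest arrays of the groups, chow replicate 1 and cafeteria replicate 2, was smaller than the distance of chow replicate 4 from the other chow samples. The means were 8.81 ± 0.18 (SD, n = 4) and 9.24 ± 0.0818 (n = 5), a difference of 0.43 log2 (SE 0.0927, 95% interval 0.23 to 0.64), or 1.35-fold. Ghr stood 17th of all probe sets by unadjusted p, and like every other probe set it did not pass the adjustment over the table by limma (adjusted p = 0.844).

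The other Ghr probe set did not show this separation. It read 6.51, 7.30, 7.49 and 6.71 in chow and 7.64, 6.73, 7.18, 7.16 and 6.84 in cafeteria samples. Its groups overlapped almost fully, with only cafeteria replicate 1 above all chow samples, and the difference was 0.11 (SE 0.23, 95% interval -0.40 to 0.62). The correlation of both Ghr probe sets over the 9 arrays was 0.28, given as a description. With the mean of both probe sets standing for the gene the difference was 0.27 and the groups overlapped. In bulk islets more cells that express a gene and more RNA per cell cannot be told apart.

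Prlr, the prolactin receptor gene, overlapped between the diets. Its brightest probe set read 11.52, 11.33, 11.42 and 11.24 in chow and 11.17, 11.47, 11.80, 11.47 and 11.57 in cafeteria samples. Cafeteria samples held both the lowest value, in replicate 1, and the highest, in replicate 3. The difference was 0.12 log2 (SE 0.12, 95% interval -0.14 to 0.38, limma adjusted p = 0.881). The other 2 Prlr probe sets differed by 0.20 (SE 0.16, 95% interval -0.15 to 0.54) and 0.0647 (SE 0.11, 95% interval -0.18 to 0.31), so all 3 had the same sign and none passed. The gene has several splice forms, and which of them each probe set reads was not analysed here. Without cafeteria replicate 3, the difference of the brightest probe set was 0.044.

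**Figure D2:**
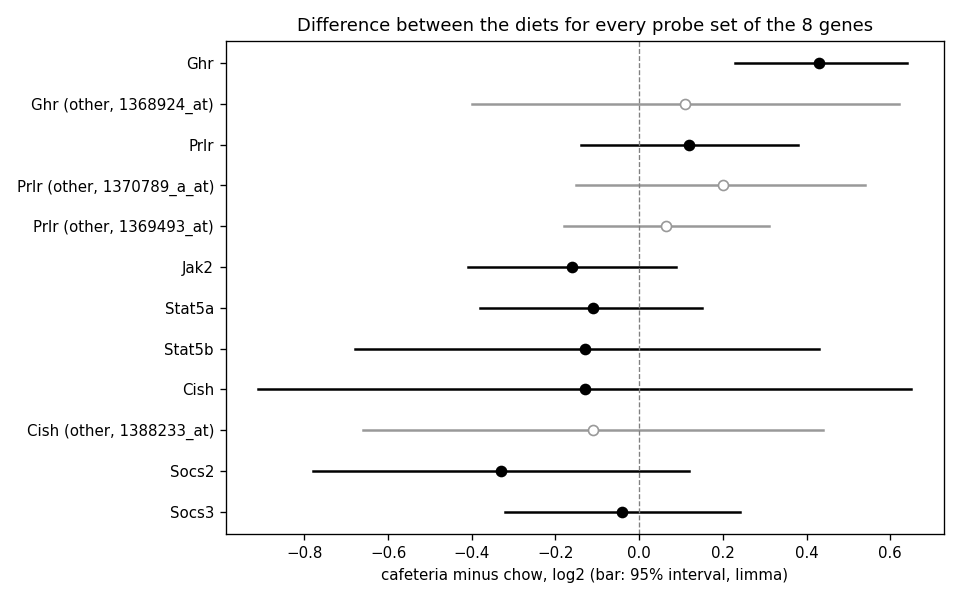
Difference between the diets (cafeteria minus chow, log2) with its 95% interval from limma for the 12 probe sets of the 8 genes; filled points stand for the gene and open points are its other probe sets. The interval of 1 probe set, the brighter one of Ghr (0.23 to 0.64), lies away from 0, and the other 11 include it.

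Jak2, the kinase that both receptors use, had a lower cafeteria mean, with overlap. It read 5.68, 5.86, 5.92 and 5.82 in chow and 5.95, 5.76, 5.37, 5.60 and 5.59 in cafeteria samples. Of the cafeteria samples 3 lay below all chow samples, but replicate 1 had the highest value of all arrays. The difference was -0.16 (SE 0.11, 95% interval -0.41 to 0.0879, limma adjusted p = 0.849), and -0.0881 without cafeteria replicate 3 and -0.24 without cafeteria replicate 1.

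The paired transcription factor genes Stat5a and Stat5b, which are neighbours on chromosome 10 and encode closely related proteins, also overlapped between the diets. Stat5a read 6.18, 6.65, 6.66 and 6.60 in chow and 6.58, 6.51, 6.36, 6.41 and 6.18 in cafeteria samples. Chow replicate 1 stood far below the other 3 chow samples. Without it every cafeteria value (up to 6.58) was below every chow value (from 6.60), by a narrow gap. With that sample left out, the groups did not overlap in 6.89% of all genes. The difference was -0.11 (SE 0.12, 95% interval -0.38 to 0.15, limma adjusted p = 0.886), and -0.23 without chow replicate 1. Stat5b read 5.65, 6.61, 6.28 and 6.11 in chow and 6.79, 6.06, 5.58, 6.09 and 5.67 in cafeteria samples. Chow replicate 1 and cafeteria replicates 3 and 5 were low in it whatever their diet, and cafeteria replicate 1 was highest. The difference of -0.13 (SE 0.25, 95% interval -0.68 to 0.43, limma adjusted p = 0.95) had the other sign without chow replicate 2 (0.0231).

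No feedback gene was higher in the cafeteria samples beyond the spread between samples. Socs2, which encodes the substrate-binding part of a ubiquitin ligase that limits growth hormone signalling, read 5.31, 5.65, 6.04 and 6.08 in chow and 5.80, 5.41, 4.86, 5.61 and 5.53 in cafeteria samples. No cafeteria sample reached the upper chow values in replicates 3 and 4, and cafeteria replicate 3 had the lowest value of all. The difference was -0.33 (SE 0.20, 95% interval -0.78 to 0.12, limma adjusted p = 0.846), the lowest among the 8 genes, and -0.18 without cafeteria replicate 3. The upper end of this interval, 0.12 log2, reflects only the scatter of these samples and does not exclude a larger rise. Socs2 had a mean of 5.59 log2, little above the median of all probe sets (5.29). Its relation to the 3-prime minus 5-prime control difference is given below.

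Cish, whose product CIS blocks STAT5 from binding the receptor, varied far more within each diet than between them. It read 6.71, 5.32, 6.51 and 5.91 in chow and 5.48, 6.79, 6.11, 6.35 and 5.20 in cafeteria samples. Each diet held high and low samples: chow replicates 1 and 3 and cafeteria replicates 2 and 4 were high, and chow replicate 2 and cafeteria replicates 1 and 5 were low. The within-diet SD of 0.64 log2 was larger than that of 98.8% of 2094 genes whose mean lay within 0.5 log2 of it, for which the median was 0.18. The other Cish probe set followed it closely (r = 0.93 over the 9 arrays, as a description), with 5.69, 4.88, 5.90 and 5.06 in chow and 4.96, 5.77, 5.13, 5.63 and 4.88 in cafeteria samples. The diets differed by -0.13 (SE 0.35, 95% interval -0.91 to 0.65, limma adjusted p = 0.965), and the sign turned without chow replicate 1 (0.0714), chow replicate 3 (0.00531) or cafeteria replicate 5 (0.0694), so no direction is given. Cish is the gene with 4 STAT5-type elements in the upstream sequence printed above, and whether they bear on its spread was not tested.

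Socs3, which encodes an inhibitor of JAK kinases that answers to many cytokines, was dim, below the median of all probe sets, where differences are compressed. It read 4.28, 4.51, 4.45 and 4.11 in chow and 4.43, 4.61, 4.14, 4.08 and 4.21 in cafeteria samples. Both groups covered nearly the same range. The difference of -0.0416 (SE 0.13, 95% interval -0.32 to 0.24, limma adjusted p = 0.968) changed sign without chow replicate 2 (0.0155) or cafeteria replicate 4 (0.0119).

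Whether the other members follow Ghr from sample to sample was asked within the diets, since the contrast in which Ghr had been noticed is then taken out. Each value was expressed as its deviation from the mean of its diet group, and correlations over the 9 arrays were tested by exact permutation of arrays within diets (two-sided, all orders, smallest possible p 0.000347). There were 14 relations, over which p was adjusted by Benjamini-Hochberg: Ghr to 7 members, Prlr to 6, and Socs3 to the immediate early genes. None passed an adjusted p of 0.05.

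No relation of Ghr to a feedback gene passed. The correlation was -0.0568 for Cish (Spearman rho 0.0167, exact p = 0.908), -0.21 for Socs2 (rho -0.0667, exact p = 0.674) and 0.17 for Socs3 (rho 0.23, exact p = 0.673), with adjusted p = 0.968, 0.858 and 0.858. Without chow replicate 4 and cafeteria replicate 2, the arrays farthest from the median of Ghr, r was 0.0939, 0.32 and 0.00824. For the other members r was 0.24 (Prlr, rho 0.37, exact p = 0.446), -0.012 (Jak2, rho -0.10, exact p = 0.968), -0.40 (Stat5a, rho -0.12, exact p = 0.408) and -0.0328 (Stat5b, rho -0.0167, exact p = 0.936). The adjusted p was 0.781, 0.968, 0.781 and 0.968, and without the same 2 arrays r was -0.18, 0.26, -0.48 and -0.20. With 9 arrays only strong relations can be seen, so a weaker one was not detectable here. The other Ghr probe set, added after the data were seen and given as a description, had r of -0.33 with Cish, 0.37 with Socs2, 0.26 with Socs3, 0.67 with Stat5a and 0.72 with Stat5b; its own r with the 3-prime minus 5-prime control difference was -0.56, and those of Stat5a and Stat5b were -0.77 and -0.87.

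**Figure D3:**
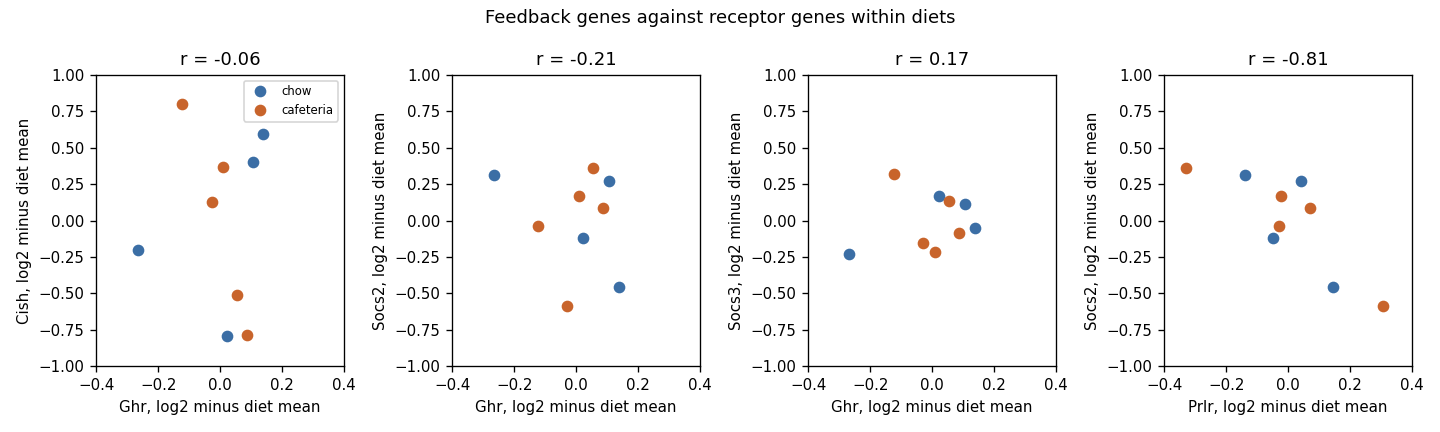
Within-diet deviations (log2) of Cish, Socs2 and Socs3 against those of Ghr, and of Socs2 against Prlr, for 4 chow (blue) and 5 cafeteria (orange) samples. The points against Ghr scatter (r of -0.0568, -0.21 and 0.17), and against the brightest Prlr probe set Socs2 slopes downward without passing the test (r = -0.81, adjusted p = 0.094 by exact permutation).

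No relation of Prlr to another member passed either, and by its brightest probe set the signs were mixed. The correlation was -0.89 with Jak2 (rho -0.80, exact p = 0.0187), -0.84 with Stat5b (rho -0.75, exact p = 0.0135) and -0.81 with Socs2 (rho -0.72, exact p = 0.0201). None of the 3 passed (each had an adjusted p of 0.094), and r without cafeteria replicates 1 and 3 was -0.48, -0.63 and -0.62 (exact p = 0.382, 0.250 and 0.347), so the sizes rest in part on those samples. Stat5b alone passed when chow replicate 4 was left out (r = -0.90, adjusted p = 0.0389 by exact permutation). Stat5a had r of -0.60 (rho -0.73, exact p = 0.0628, adjusted p = 0.22; r = -0.76 without the same 2 arrays), Cish 0.34 (rho 0.33, exact p = 0.44, adjusted p = 0.781; 0.22 without them) and Socs3 -0.30 (rho -0.25, exact p = 0.517, adjusted p = 0.804; 0.0848 without them). In the other Prlr probe sets r was -0.15 and -0.18 with Jak2, 0.23 and -0.10 with Stat5b and -0.29 and -0.0856 with Socs2.

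By their representing probe sets, Prlr, Stat5b, Socs2 and Stat5a moved with the 3-prime minus 5-prime difference of the control probe sets past the threshold. Within the diets this difference was high in chow replicate 1 (1.80) and cafeteria replicates 3 (1.74) and 5 (1.73) and low in cafeteria replicate 1 (1.21). Its correlation, looked at after the data were seen and adjusted over 9 relations, was 0.87 with Prlr (rho 0.85, exact p = 0.00104, adjusted p = 0.00937) and -0.87 with Stat5b (rho -0.82, exact p = 0.0059, adjusted p = 0.0266). It was -0.79 with Socs2 (rho -0.80, exact p = 0.0108, adjusted p = 0.0323), -0.77 with Stat5a (rho -0.70, exact p = 0.0208, adjusted p = 0.0469) and -0.76 with Jak2 (rho -0.65, exact p = 0.0434, adjusted p = 0.0781), which did not pass. Without chow replicate 1 and cafeteria replicate 3, r was 0.81, -0.76, -0.54, -0.75 and -0.56 in the same order. By these probe sets 5 of the 8 members had an r of at least 0.75 in size. Of all 14217 genes 13.9% did, and the median size was 0.44. The cutoff of 0.75 was not planned and lies just under the weakest of the 5 (-0.76), so the count is a description and no test.

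For Ghr, Cish and Socs3 the relation to the control difference did not pass. The correlation was 0.28 for Ghr (rho 0.30, exact p = 0.423, adjusted p = 0.544), 0.17 for Cish (rho 0.35, exact p = 0.691, adjusted p = 0.721) and -0.15 for Socs3 (rho 0.0333, exact p = 0.721, adjusted p = 0.721), and 0.15, -0.11 and 0.084 without chow replicate 1 and cafeteria replicate 3. As a description, the other Prlr probe sets had r of 0.00255 and 0.0802, the other Cish probe set 0.0688, and the other Ghr probe set -0.56, opposite in sign to the brighter one. With the control difference removed as well, r of Prlr was -0.72 with Jak2, -0.34 with Stat5b, -0.41 with Socs2 and 0.25 with Stat5a. As a covariate of the diet comparison the control difference gave 0.44 for Ghr (limma adjusted p = 0.324), 0.16 for Prlr, -0.19 for Jak2, -0.15 for Stat5a, -0.10 for Cish, -0.40 for Socs2 (adjusted p = 0.37) and -0.0492 for Socs3. Stat5b moved most, from -0.13 to -0.22 (adjusted p = 0.588).

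**Figure D4:**
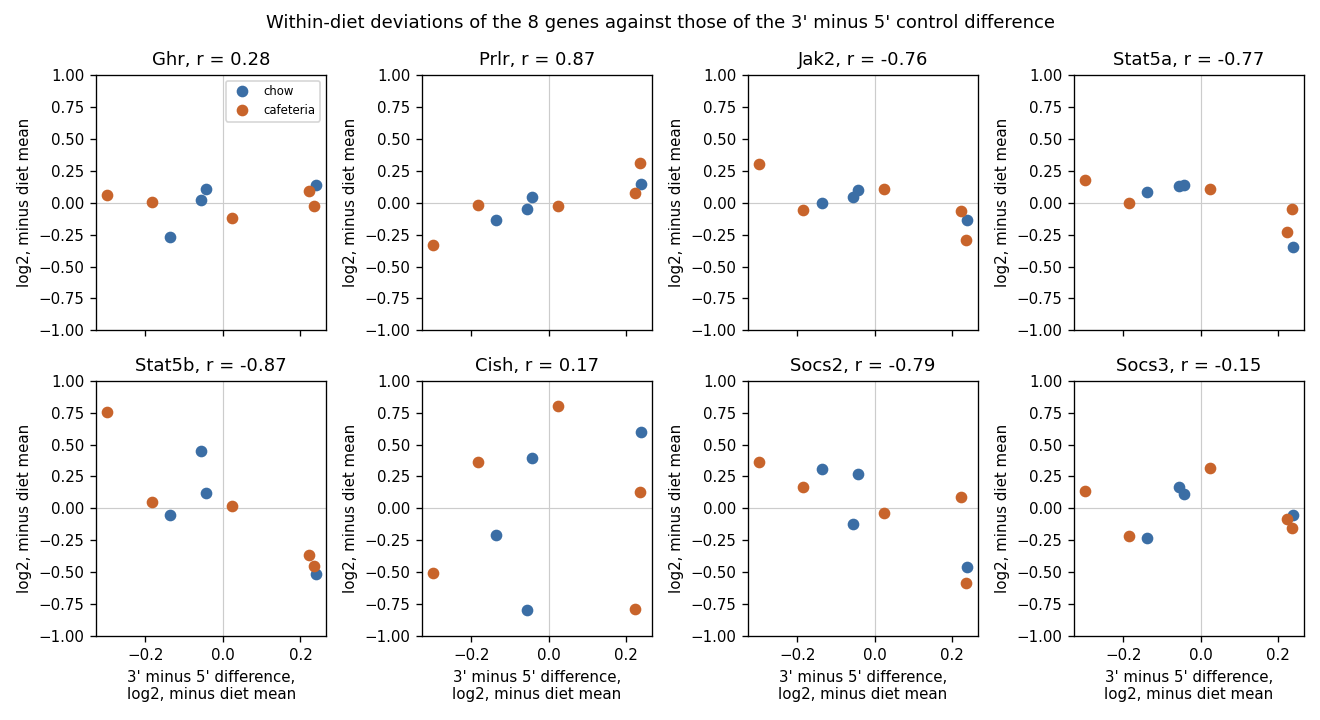
Within-diet deviations (log2) of each of the 8 genes against those of the 3-prime minus 5-prime difference of the actin and Gapdh control probe sets in 4 chow (blue) and 5 cafeteria (orange) samples. Prlr runs upward (r = 0.87), Jak2, Stat5a, Stat5b and Socs2 run downward (r from -0.87 to -0.76), and Ghr, Cish and Socs3 lie between -0.15 and 0.28.

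Socs3 is also an immediate early gene, and its relation to the score of 15 such genes was weak (r = 0.34, rho 0.33, exact p = 0.384, adjusted p = 0.781; r = 0.34 without chow replicate 1 and cafeteria replicate 2). For Cish the same relation gave 0.60 (rho 0.45, exact p = 0.115, adjusted p = 0.173 over the 9 relations). It was -0.0189 without chow replicate 1 and cafeteria replicate 2, so it rested on those samples.

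The ligand genes, known mainly from the pituitary and the placenta, were dim in all samples. Gh1 (growth hormone) read 4.64 to 4.93 in chow and 4.83 to 4.99 in cafeteria samples, and Prl (prolactin) 3.62 to 3.89 and 3.69 to 4.04, all below the median of all probe sets. Prl3b1, a placental lactogen, read 4.48 to 4.58 in chow and 4.64 to 4.79 in cafeteria samples, a difference of 0.16 (SE 0.0638) without overlap. Every cafeteria array lay above every chow array in 1.33% of all genes. Of 3 ligand genes measured 3 were higher and 0 passed limma. At this brightness the values do not show that the transcripts were present.

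Among 7 other JAK and STAT genes 2 were higher and 5 lower (median -0.0636), and 0 passed. The smallest unadjusted p in this list belonged to Jak1, Jak3 and Stat6, which were named for it, a choice that favours a separation. Jak1, a kinase of many cytokine receptors, differed by -0.22 (SE 0.0997, limma adjusted p = 0.844), with 4 of 5 cafeteria samples below every chow sample. Jak3, a kinase mainly of lymphocytes, differed by -0.38 (SE 0.19), and Stat6 by -0.25 (SE 0.21). Stat3, which carries signals of the interleukin 6 family, ranged from 7.39 to 8.97 in chow and from 7.98 to 9.18 in cafeteria samples and differed by 0.17 (SE 0.34; 1 other probe set had the opposite sign).

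Adaptors and substrates of the receptor complex were higher in 4 and lower in 9 of 13 genes (median -0.0801), and 0 passed. Of the 13, 4 lay below the median of all probe sets. Shc1, which links receptors to the Ras pathway, differed by 0.25 (SE 0.11), Lyn, a Src-family kinase, by -0.36 (SE 0.18), and Sh2b2, an adaptor that binds JAK2, by -0.26 (SE 0.16). They were named for the smallest unadjusted p in this list, and Sh2b2 was dim (mean 3.91 log2). Lyn (6.27), Sh2b2 (4.52) and Jak3 (6.63) were highest in chow replicate 3, where the immune markers were highest (score 1.22), and the part of those markers was not tested. Negative regulators were higher in 6 and lower in 9 of 15 (median -0.0204), and 0 passed. Btrc, the ubiquitin ligase subunit that takes part in removing the growth hormone receptor from the cell surface, had a chow mean of 8.12 and read 8.18, 7.77, 7.52, 7.69 and 7.72 in the cafeteria samples. All of these but replicate 1 lay below every chow sample, and the difference was -0.35 (SE 0.12, limma adjusted p = 0.844). Btrc, Sirpa and Pias3 were named for the smallest unadjusted p in this list, a choice that favours such a separation. Whether Btrc bears on Ghr was not tested. Sirpa, a membrane protein that recruits phosphatases, differed by -0.55 (SE 0.21; 1 of 2 other probe sets had the opposite sign), and Pias3, an inhibitor of STAT proteins, by -0.18 (SE 0.0893). Socs1 differed by -0.0284 (SE 0.11).

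Genes known to respond to the receptors were higher in 6 and lower in 12 of 18 measured (median -0.0459), and 0 passed. Of the 18, 6 lay below the median of all probe sets. Igf1, the classical growth hormone target in liver, read 6.96 to 7.29 in chow and 6.71 to 7.26 in cafeteria samples, a difference of -0.12 (SE 0.12, limma adjusted p = 0.882). Ccnd2, the cyclin that beta cells use to divide, was bright. It read 11.71 to 12.19 in chow and 11.97 to 12.07 in cafeteria samples (difference 0.0317, SE 0.0928). Tnfrsf11b, the osteoprotegerin gene, a target of the prolactin receptor in islets, read 8.95 to 9.77 and 9.15 to 9.62 (difference -0.0652, SE 0.17). The smallest unadjusted p in this list belonged to Bcl2l1, an inhibitor of apoptosis (-0.26, SE 0.0988), Igfbp3, a carrier of insulin-like growth factors (-0.53, SE 0.20), and Pim3, a survival kinase (-0.23, SE 0.12), with limma adjusted p = 0.844 for each. Tph1 and Tph2, the enzymes of serotonin synthesis, were not analysed here.

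Other receptors of the type I cytokine family were higher in 4 and lower in 8 of 12 genes (median -0.0896), and 0 passed. Of the 12, 6 lay below the median of all probe sets. Il2rg and Il2rb, receptor chains of lymphocytes, differed by -0.81 (SE 0.30) and -0.22 (SE 0.0824), and Il11ra1 by -0.24 (SE 0.10). They were named for the smallest unadjusted p in this list, and Il2rb was dim (mean 4.30 log2). The highest Il2rg value, 7.40, was in chow replicate 3, the sample in which the immune markers were highest. Lepr, the leptin receptor gene, was dim and differed by 0.15 (SE 0.0839; 1 of 6 other probe sets had the opposite sign). Groups did not overlap in 0 of these 12 receptors, against 2.17% of all genes.

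As a description, with no test, the genes whose values ran most like those of Ghr over the 9 arrays were sought among 9409 genes brighter than the median probe set. They were Lin52 (Pearson r = 0.93), Zbtb8os (0.93), Tdrkh (0.92), Mrpl32 (0.92) and Slirp (0.90). The groups did not overlap in any of these 5, which the choice by likeness to Ghr brings with it. Their cafeteria minus chow differences were 0.14 to 0.30 log2, against 0.43 for Ghr. The genes most like the brightest Prlr probe set were Zfp758, Ptprb, Phf19 and Zwint (each 0.96) and Mysm1 (0.95), and their groups overlapped, with differences of 0.0756 to 0.16.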

How the data were processed

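The deposited table holds log2 expression values, 1 column for each of 9 samples; RMA, affy 2.0.1 and R 2.7.0 are named in the submitters' processing notes, with no roles given. RMA equalises the arrays, so a shift shared by most genes is removed. RMA values carry no detection call, and the number of arrays limits the precision (median SE of a diet difference 0.0981 log2). Of 31099 probe sets 57 controls were left out. The platform annotation gave 20826 of the other 31042 a single gene.

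Diets were compared with limma 3.58.1 (R 4.3.3), lmFit and eBayes with no covariate, a two-sided p and Benjamini-Hochberg adjustment across the 31042; the code was tested on simulated data. Within-diet relations used exact permutation (Python 3.11.15). Replicates are numbered in the order of the labels and pair nothing. The members and gene lists were chosen with earlier results of these data known. Named beside the members were the 3 genes with the smallest p of each pathway list, 9 always named (Gh1, Prl, Igf1, Tph1, Ccnd2, Tnfrsf11b, Lepr, Stat3, Socs1), and the 5 genes most like Ghr and Prlr. Motifs were sought in 250 bases upstream of RefSeq starts (GRCr8). Alternatives were other scalings, variance models, weights, a filter on dim probe sets, the control difference as a covariate, other probe set rules and leaving out each sample. The ductal, endothelial, stellate and adipocyte lists had median differences of -0.219, -0.115, -0.0146 and -0.000757.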

Additional observations from a re-analysis of the deposited data

Results flagged for a closer look

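In Stat5a, chow replicate 1 (6.18) stood apart from the other chow samples, of which the nearest was at 6.60; its gap was 0.88 of the range of the group. The same sample had the highest 3-prime minus 5-prime difference of the control probe sets (1.80). In Jak3, cafeteria replicate 3 (5.29) stood below the other cafeteria samples, the nearest of which was at 5.85, with a gap of 0.71 of the range. Chance alone flags about 1 in 20 groups, and 72 were looked at.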

How the results depend on the processing

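No setting brought a probe set past an adjusted p of 0.05, nor did a threshold of 0.10. The 1789 probe sets at an unadjusted p under 0.05 became 3413 with the control difference as a covariate, 899 among probe sets above the median brightness, where fewer were tested, and 1235 to 2750 with a sample left out. Single samples left out gave differences of 0.35 to 0.48 (Ghr), 0.044 to 0.20 (Prlr), -0.24 to -0.0881 (Jak2), -0.23 to -0.0581 (Stat5a), -0.31 to 0.0231 (Stat5b), -0.39 to 0.0714 (Cish), -0.48 to -0.18 (Socs2) and -0.12 to 0.0155 (Socs3). With array weights Cish turned to 0.0674. With the mean of all probe sets of a gene 0 members had groups apart, and 1 to 2 with a sample left out, 2 without chow replicate 1, when 6.89% of all genes did. Relations of Ghr within diets ran over -0.0706 to 0.54 (Prlr), -0.19 to 0.17 (Jak2), -0.57 to -0.0898 (Stat5a), -0.23 to 0.25 (Stat5b), -0.35 to 0.19 (Cish), -0.37 to 0.25 (Socs2) and -0.56 to 0.60 (Socs3) with a sample left out. Median centring turned those to Jak2 (0.0614) and Stat5b (0.0134), and Spearman's rho that to Cish (0.0167). Removing the control difference, added after the data were seen, turned those to Prlr (-0.0045), Jak2 (0.31), Stat5b (0.43) and Socs2 (0.0157), and that of Prlr to Stat5a (0.25). The relation of Socs3 to the immediate early genes ran over -0.0122 to 0.70 with a sample left out. The cause of these changes was not tested. No paired analysis was possible because the labels give no replicate numbers that link the diets.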

Other observations

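The genes whose values ran most like Cish over the 9 arrays, looked for after its wide spread had been seen, were Spry1 (Pearson r = 0.94), Dennd4b (0.92), Cenpj (0.92), Clk1 (0.90) and Mmp15 (0.89), among 9409 genes compared. Spry1 encodes an inhibitor of growth factor signalling through Ras, itself a feedback gene. Spry1 differed between the diets by -0.0464 (SE 0.12), Dennd4b by -0.12 (SE 0.098), Cenpj by -0.0225 (SE 0.13), Clk1 by -0.068 (SE 0.15) and Mmp15 by -0.0622 (SE 0.0892) log2, none past the test (limma adjusted p = 0.865 to 0.985), and their groups overlapped. These correlations are a description, since the genes were picked for them.

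Within-diet spread differed among the 8 genes when each was set against genes within 0.5 log2 of its own level. Cish (SD 0.64), Stat5b (0.44) and Socs2 (0.36) were wider than 98.8%, 96.5% and 92.2% of such genes. Socs3, Prlr, Stat5a and Jak2 were wider than 86.9%, 80.0%, 59.9% and 52.2%. The brighter Ghr probe set (0.14) was wider than 42.5%. Ghr had been picked for its diet difference, a choice that favours a small spread, so its place here is no result. The other Ghr probe set had an SD of 0.41.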
